A study of Dicentrarchus labrax with 10 samples.

Results

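Of the transcripts on a sea bass array, 367 carry names that begin with cDN23P, the mark of 1 cDNA clone library called library 23 here, and 334 of them were kept for this description. A transcript was kept when at least 1 of its probes was well above background in at least 50% of its spots on at least 5 of the 10 arrays. The probe with the highest mean over all arrays then stood for the transcript. By the same steps 9929 of 11705 transcripts were kept over the whole array. The members were thus chosen by name and selected on processed intensity over both groups together, which is the readout described below, and the difference between the groups was not used. A dim member could still pass mainly through the group where it was high.

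The arrays were hybridised with gonad RNA of 10 individual European sea bass (Dicentrarchus labrax), each from part of a gonad, taken at 170 days post hatch (dph) and labelled as from putative females. All fish were kept at 17 °C up to 20 dph and were fed estradiol from 90 to 154 dph. The 5 fish called LTE2 spent early life at 15 °C and were brought to 21 °C after 60 dph, and the 5 fish called HTE2 were warmed to 21 °C straight after 20 dph. With 1 tank for each early temperature, effects of tank and of temperature cannot be told apart. Fish that received no estradiol were not analysed here.

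In the European sea bass, sex depends on many genes and on the temperature of early life, and warm early rearing is known to turn part of the genetic females into males. Aromatase, the enzyme that makes estrogen from androgen, is needed for an ovary to form, and estradiol in the food feminizes juvenile fish. A cDNA clone library is a collection of copied messenger RNAs, and its clones reflect what was transcribed in the material it was made from, which the sources used here do not give. The files pair no probe with a gene and hold no probe sequence, and none of the clone names matched the RefSeq gene table of the species. Members are therefore given by clone name, with no role and no place in the genome, and the labelled tissue and sex could not be checked against marker genes.

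Values are log2 processed intensities minus the 75th percentile of the same array, so that 0 is the brightness below which 75% of the non-control spots lie. That percentile ranged from 243.3 to 684.1 in LTE2 and from 632.6 to 1393 in HTE2, and on each of the 5 slides HTE2 was brighter than LTE2. A slide carried the LTE2 fish of a given replicate number at place 3 and the HTE2 fish of that number at place 4, and an effect of the place cannot be told apart from one of the group. One fish stood apart. Over 332 members measured on all arrays, the root mean square log2 distance of HTE2 replicate 3 was 1.23 to the other HTE2 fish and 0.81 to the LTE2 fish. The other 9 fish were each closer to their own group, LTE2 replicate 3 by the least, at 0.93 against 0.97. With no marker gene named on the array, whether HTE2 replicate 3 carries the right label could not be checked.

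Most members gave dim signals. The median level of the 334 members was -2.48, with quartiles at -3.90 and -0.83, while the median of all kept transcripts was -1.31. Only 16.5% of the members lay above the 75th percentile of the array on average, against 31.8% of all kept transcripts. Among the dimmest 10% of all kept transcripts were 54 members (16.2% of them), and among the brightest 10% were 10 (2.99%). As the signal of a probe also depends on how well it binds, these values order signals and not amounts of RNA, and as detection was part of the choice they are given without a test.

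**Figure D1:**
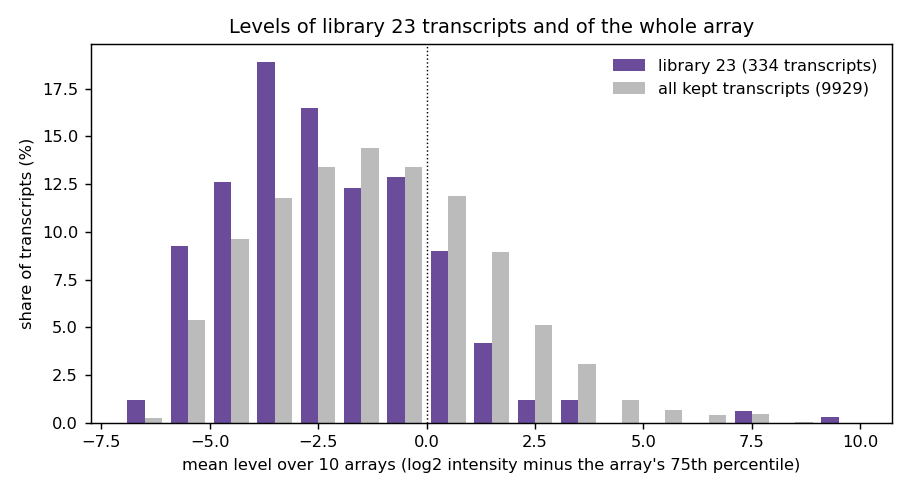
The x axis gives the mean level over the arrays, in log2 units above or below each array's 75th percentile (dotted line at 0), and the y axis the share of transcripts in bins of 1 unit. The 334 members (purple) pile up to the left of all 9929 kept transcripts (grey), with medians of -2.48 and -1.31, and 3 members stand alone above 7.

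Detection was uneven between the groups. The chosen probe was well above background on all 10 arrays for 253 members (75.7%), against 84.7% of all kept transcripts. Of the other 81 members, 77 were detected on more HTE2 than LTE2 arrays and 4 on more LTE2 arrays. Over all kept transcripts the lean was the same way, with 1134 on more HTE2 arrays, 219 on more LTE2 arrays and 169 on as many of each. By array, 271, 276, 328, 299 and 288 of the 334 members were detected in LTE2 replicates 1 to 5, and 332, 328, 327, 331 and 320 in HTE2 replicates 1 to 5. LTE2 replicate 3 was therefore as well detected as the HTE2 fish, and the other 4 LTE2 arrays fell below all HTE2 arrays. Array brightness did not follow these counts throughout. LTE2 replicate 3, with a 75th percentile of 513.6, had 328 detected members, and LTE2 replicate 4, with 684.1, had 299. HTE2 replicate 5, with 632.6, had 320. The part of brightness in the counts was not tested. No member was detected on all arrays of one group and on none of the other.

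The edge of the selection lay among the dimmest probes. Of the 33 members left out, 8 were detected on no array, and 5 reached 4 arrays. Just inside the limit, cDN23P0004N08 was detected on 5 arrays with levels from -7.60 to -5.66 and a median of -6.66, and cDN23P0004I19 on 5 arrays with levels from -7.54 to -4.95 and a median of -6.26. Just outside it, cDN23P0001G03 was detected on 4 arrays with levels from -6.93 to -4.73 and cDN23P0004D20 on 4 with levels from -7.78 to -4.30. The levels on both sides of the limit overlapped.

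A few members were very bright. The transcript cDN23P0006L21 had the highest mean signal of all 9929 kept transcripts, at 9.14. Its levels were 10.33, 9.42, 9.52, 9.08 and 9.25 in LTE2 replicates 1 to 5 and 8.57, 8.87, 8.10 and 9.09 in HTE2 replicates 2 to 5, while its spots on the array of HTE2 replicate 1 were marked as outliers and left out. The ranges met only between 9.08 and 9.09, and with 9 values the difference of -0.86 (SE 0.30) missed the threshold (limma adjusted p = 0.0584). It shrank to -0.05 under quantile normalization and to -0.03 in the authors' deposited table. Quantile normalization gives equal ranks equal values on every array, so the brightest transcript can differ little there by construction. In 5 alternatives the difference of cDN23P0006L21 passed the threshold with the same sign, and in 19 it did not. The other kept probes of cDN23P0006L21 gave -0.67 and -0.72. The level of cDN23P0006L21 was highest on the array with the lowest 75th percentile (LTE2 replicate 1, log2 7.93). It was lowest on the array with the highest percentile (HTE2 replicate 4, log2 10.44). The part of the subtracted percentile in the difference was not tested. The second, cDN23P0005O04, stood at rank 18 of the array, with 7.89 ± 0.14 in LTE2 and 7.30 ± 0.49 in HTE2 (SD, n = 4 each, since replicate 1 of both groups was left out for outlier spots; limma adjusted p = 0.124). The third, cDN23P0004I18, at rank 37, gave 7.67, 7.62, 7.61, 7.54 and 7.42 in LTE2 and 6.56, 6.91, 7.21, 6.44 and 7.23 in HTE2. Every HTE2 value of cDN23P0004I18 lay below every LTE2 value (log2 difference -0.70, SE 0.21, limma adjusted p = 0.0313). It missed the threshold with the slide as a block (limma adjusted p = 0.0674) and under normexp (-0.46, limma adjusted p = 0.133). The sign turned in the authors' deposited table and under spike-in scaling. Over the alternatives, the call held in 10, was lost with the same sign in 12, and the sign turned in 2. The other kept probes of cDN23P0004I18 gave -0.64 and -0.53, and neither passed on its own (limma adjusted p = 0.0647 and 0.139).

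Below these 3, no member had a level between 4 and 7. Next came cDN23P0004J22 and cDN23P0002N01, neither of which was called. For cDN23P0004J22 the mean was 3.82 ± 0.26 among LTE2 fish and 3.91 ± 0.45 among HTE2 fish (SD over 5 each), a log2 difference of 0.09 (SE 0.24). For cDN23P0002N01 the means were 3.51 ± 0.18 and 3.86 ± 0.14, a difference of 0.34 (SE 0.17, limma adjusted p = 0.146), while in the authors' deposited table cDN23P0002N01 was higher in HTE2 by 0.50 (limma adjusted p = 0.0163). The sixth, cDN23P0007D06, had 3.77, 4.06, 3.75, 4.50 and 4.02 in LTE2 and 2.81, 2.71, 3.47, 1.34 and 2.71 in HTE2. Its groups did not overlap, HTE2 replicate 3 came nearest to LTE2, and HTE2 replicate 4 was far below the others. The log2 difference of cDN23P0007D06 was -1.41 (SE 0.35, limma adjusted p = 0.0182; 0.0501 with the slide as a block).

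Members varied more between fish than between spots. The SD among the 5 fish of a group, taken as the root mean square of both groups, had a median of 0.52 log2 units over the members and 0.47 over all kept transcripts. Repeated spots of a member's probe on 1 array had a median SD of 0.16, and the SD among fish was the larger of the 2 in 307 of 334 members. Differences between arrays are part of the value of 0.52, since no fish was put on more than 1 array. Dim members spread more, with a median SD of 0.63 in the dimmest and 0.37 in the brightest of 4 classes bounded by the quartiles of all levels, against 0.64 and 0.38 over all kept transcripts. The median SD of the members was 0.47 in LTE2 and 0.53 in HTE2, and it was larger in HTE2 for 214 members (64.1%; 69.3% of all kept transcripts). From the lowest to the highest of the 10 fish, the median member spanned 2.04 log2 units, or 4.11-fold.

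The SD exceeded 1 log2 unit for 33 members (9.88%, against 7.48% of all kept transcripts). The largest SD, 2.27, was that of cDN23P0004K18, with -4.47, 0.04, -3.45, -5.29 and -6.72 in LTE2 and -1.58, -1.54, -5.71, -0.77 and -1.83 in HTE2. LTE2 replicate 2 was the brightest of all 10 fish for cDN23P0004K18, and HTE2 replicate 3 lay among the low LTE2 fish, so that the groups overlapped (limma adjusted p = 0.297). The next, cDN23P0003B05, ran from -3.07 to 0.28 in LTE2, with a median of -0.28, and had -0.84, -0.11, 3.63, 4.29 and 1.15 in HTE2. Here HTE2 replicate 3 was high, and HTE2 exceeded LTE2 on all 5 slides, by 1.22 to 4.05. The log2 difference of cDN23P0003B05, 2.60 (SE 1.03), was not called without the slide in the fit (limma adjusted p = 0.0792) and was called with the slide as a block (0.0268).

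The next in order of SD were dim. The transcripts cDN23P0005O08 and cDN23P0001I14 had an SD of 1.36 and 1.35, were detected on 1 LTE2 array and 4 HTE2 arrays each, and were lowest within HTE2 in replicate 3, at -7.87 and -7.07. The steadiest members lay near the 75th percentile of the array, above the upper quartile of the members. The transcript cDN23P0006D21 varied between 0.16 and 0.53 over the 10 fish (SD 0.13 within groups) and cDN23P0003C17 between -0.23 and 0.22 (SD 0.13), with log2 differences of 0.10 and 0.08 (SE 0.16 each).

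More members were higher than lower in HTE2. At an adjusted p under 0.05 (limma, Benjamini-Hochberg over all 9929 kept transcripts), 116 of 334 members differed (34.7%), against 25.5% of all kept transcripts. Of the members, 92 rose in HTE2 (27.5%, against 10.9% of all), and 24 fell (7.19%, against 14.6%). Of the 92, 73 were detected on all 10 arrays, and the rest could pass the filter through the group where they were high. Among transcripts detected on all 10 arrays, 83 of 257 members were higher (32.3%, against 11.9% of all) and 28 lower. There the median difference was 0.32 for members and -0.29 for all. The median difference of the members, HTE2 minus LTE2, was 0.44 log2 units, while the median of all kept transcripts was -0.27 on the same scale. In 235 members (70.4%) the difference was above 0, against 36.5% of all kept transcripts. The split of rises and falls was 119 to 0 under spike-in scaling (35.6% of members called, against 12.7% of all). Over all kept transcripts that split was 1240 to 17, so nearly all calls were rises on the whole array too. Under normexp background correction the split was 34 to 29, against 575 to 1734 over all. The median difference of the members was 1.48 under spike-in scaling and -0.29 under normexp, against 0.76 and -0.51 over all. The members' median lay above that of all kept transcripts by 0.71 on the main scale and by 0.21 under normexp, where its sign turned. Spike-in scaling subtracts 1 value per array, so its distance of 0.71 repeats that of the main scale and is no separate evidence. In bulk tissue, fewer cells of a type and less RNA per cell cannot be told apart.

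On the main scale the rises were also the larger changes. Among the 92 members that rose, the log2 difference ran from 0.71 to 3.05 with a median of 1.53, or 2.89-fold, and among the 24 that fell from -2.07 to -0.61 with a median of -1.02, or 2.03-fold. Under normexp the order turned, with a median of 0.68 for the same 92 and -0.98 for the same 24. On the main scale and over 2-fold, 78 members rose (23.4%; 7.51% of all kept transcripts) and 13 fell (3.89%; 9.36% of all). Over 4-fold, 23 members rose (6.89%; 1.65% of all) and 1 fell (0.299%; 0.886% of all). The members that rose were spread over levels from -5.70 to 3.11.

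**Figure D2:**
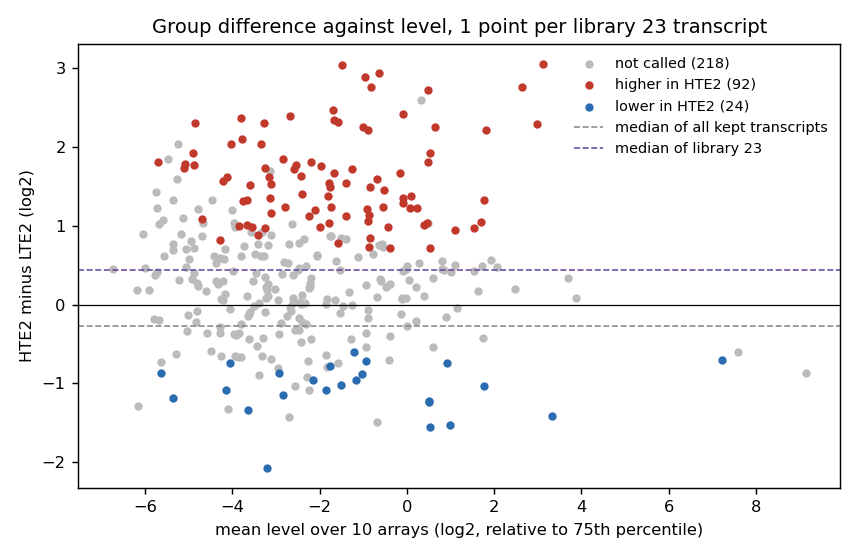
Each point is 1 member, with its mean level on the x axis and its log2 difference, HTE2 minus LTE2, on the y axis, and dashed lines mark the medians of library 23 (0.44) and of all kept transcripts (-0.27). The 92 members called higher (red) cover most of the range of levels, and the 24 called lower (blue) reach -2.07.

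These counts changed with the slide, with single fish and with array brightness. When the slide entered the fit as a replicate block, 62 members were called (18.6%, against 15% of all kept transcripts), 45 higher and 17 lower, and 57 of the 62 were among the 116. Without HTE2 replicate 3, 164 members were called (49.1%, against 41.7% of all), 134 higher and 30 lower, and all 116 were among them. Leaving out another HTE2 fish in turn gave 59, 63, 71 and 66 called members (replicates 1, 2, 4 and 5), and leaving out LTE2 replicate 2, 4 or 5 gave 74, 47 and 56, with more higher than lower each time. The shares of all kept transcripts were 12.3%, 14%, 16.4% and 15% for those HTE2 fish, where 17.7%, 18.9%, 21.3% and 19.8% of the members were called. They were 17%, 11.6% and 12.3% for those LTE2 fish, where 22.2%, 14.1% and 16.8% of the members were called. Leaving out LTE2 replicate 1 gave 97 called members (29%, against 19.4% of all), and leaving out LTE2 replicate 3 gave 110 (32.9%, against 20.4%). With the log2 brightness of the array as a covariate no member passed limma's adjusted p (0.564% of all kept transcripts did). At an unadjusted limma p under 0.05, 89 members were higher and 12 lower. No share of all kept transcripts was taken at that unadjusted threshold. With this covariate the median difference was 0.48 for the members and -0.11 for all kept transcripts.

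Another treatment of the intensities, normexp, changed the picture for the dimmer members. It differed from the main values in the background correction, in an added offset of 50 and in starting from the raw median intensity. The parts of these in the change were not separated. It called 63 members (18.9%, against 23.3% of all kept transcripts), while on the main values the members' share was the larger. At an unadjusted limma p under 0.05, 56 members were higher and 83 lower under normexp, a count taken over the members only. All kept transcripts leaned to lower under normexp too, with 575 higher and 1734 lower at limma's adjusted p under 0.05. At that threshold 34 members were higher and 29 lower. Of the 92 members called higher on the processed intensity, 33 were called higher under normexp and 0 were called lower, and 75 were above 0. The loss of rises was seen in the 3 dimmer level classes. In the dimmest of the 4 level classes, 18.2% of 132 members were called higher on the processed intensity and 0 of them under normexp, where 0 of all 2483 transcripts of that class were called higher too. In the second class, 30.2% of 96 members were called higher on the processed intensity and 4.17% under normexp, against 10% and 0.766% of all. In the third class, 41.7% of 72 members were called higher on the processed intensity and 27.8% under normexp, against 12.7% and 7.78% of all kept transcripts there. In the brightest class the values for 34 members were 26.5% and 29.4%, against 13.3% and 14.6% of all.

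**Figure D3:**
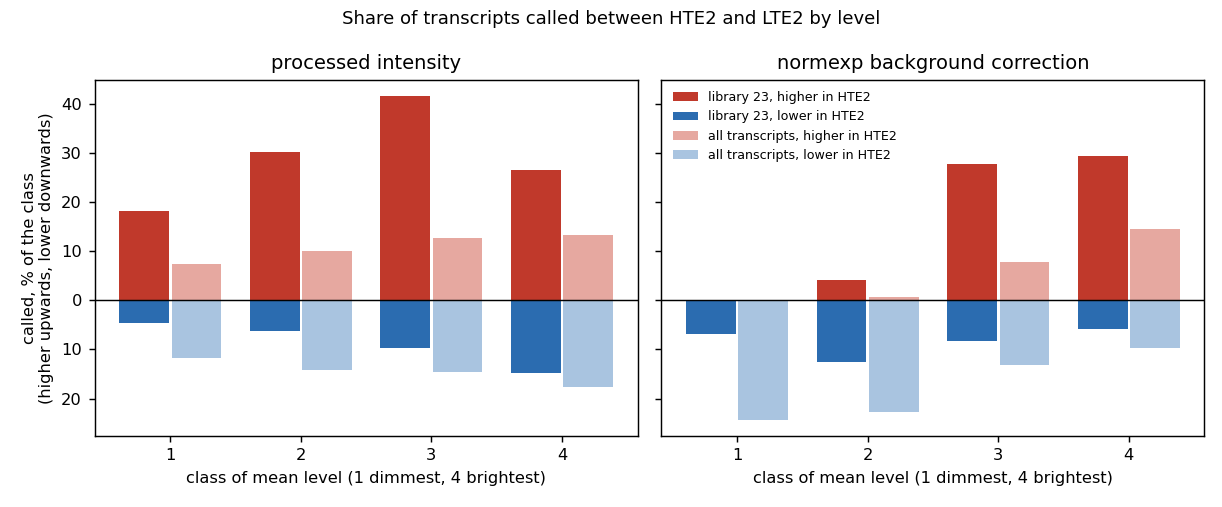
For each of 4 equal classes of the mean level over all kept transcripts (x axis, dimmest first), bars show the share called higher (red, upwards) and lower (blue, downwards) in HTE2, in percent, for library 23 (dark) and all kept transcripts (pale), from the processed intensity (left) and after normexp correction (right). In the third class 41.7% and 27.8% of the members are called higher, in the second 30.2% and 4.17%, and in the dimmest 18.2% and 0.

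The 2 largest rises were alike from fish to fish. The transcript cDN23P0004K04 had 1.88, 1.29, 2.74, 1.24 and 0.79 in LTE2 replicates 1 to 5 and 5.18, 5.16, 2.18, 5.68 and 5.00 in HTE2 replicates 1 to 5. Of the HTE2 fish, 4 lay far above all LTE2 fish, and replicate 3 lay within the LTE2 range. The rise of cDN23P0004K04 was 3.05 log2 units (SE 0.61, limma adjusted p = 0.0119; 0.0415 with the slide as a block), and 3.67 without HTE2 replicate 3.

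The transcript cDN23P0002O20, of middle brightness, had -2.49, -3.11, -1.36, -3.88 and -4.18 in LTE2 and 0.58, 0.68, -2.29, 1.09 and 0.11 in HTE2. Again HTE2 replicate 3 was the exception and fell within the LTE2 range. The rise of cDN23P0002O20 was 3.04 log2 units (SE 0.67, limma adjusted p = 0.0137; 0.0446 with the slide as a block), or 8.22-fold. It was 3.62 without HTE2 replicate 3, 2.03 in the authors' deposited table and 1.88 under normexp. Its other 2 probes gave 3.30 and 3.21, so the rise did not rest on 1 probe. On slides 1, 2, 4 and 5 the difference of cDN23P0002O20 lay between 3.07 and 4.98, and on slide 3 it was -0.92.

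The largest fall, cDN23P0004P03, did not share that exception. Its levels were -1.14, -2.23, -2.08, -3.05 and -2.35 in LTE2 and -4.04, -4.70, -4.13, -3.99 and -4.34 in HTE2. Every HTE2 fish lay below every LTE2 fish, replicate 3 included, and all 5 slides agreed in sign, from -2.89 to -0.95. The fall of cDN23P0004P03 was -2.07 log2 units (SE 0.32, limma adjusted p = 0.0042; 0.0191 with the slide as a block), or 4.2-fold, with -2.10 and -2.08 in its other 2 probes. Its size was -1.58 under normexp and -0.87 in the authors' deposited table.

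The second fall, cDN23P0002C12, had 1.47, 0.70, 1.57, 1.51 and 1.29 in LTE2 and -0.58, -0.26, 1.05, -0.78 and -0.63 in HTE2. In this transcript HTE2 replicate 3 lay within the LTE2 range and the other 4 HTE2 fish below it. The fall of cDN23P0002C12 was -1.55 log2 units (SE 0.34, limma adjusted p = 0.0137; 0.0381 with the slide as a block), and -1.87 without HTE2 replicate 3. None of the 4 transcripts passed limma's adjusted p with array brightness as a covariate (0.0938 to 0.155), when the log2 differences were 2.99 for cDN23P0004K04, 3.1 for cDN23P0002O20, -1.49 for cDN23P0004P03 and -1.36 for cDN23P0002C12.

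**Figure D4:**
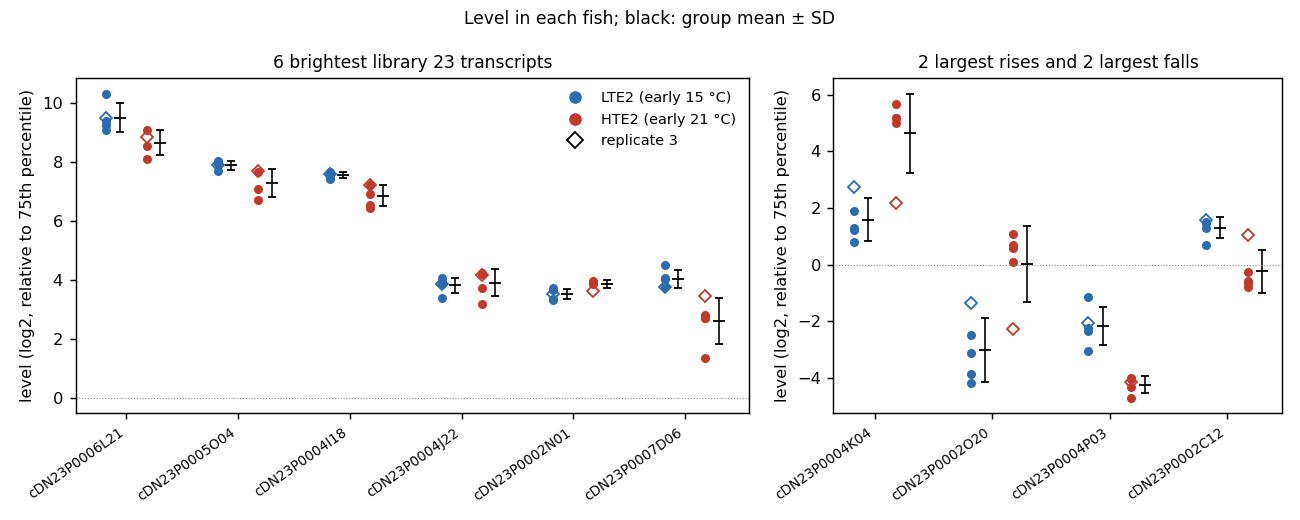
The y axis gives the level in log2 units relative to the 75th percentile of the array, with 1 point per fish for LTE2 (blue) and HTE2 (red), open diamonds for replicate 3, and black bars for the group mean ± SD. In cDN23P0004K04 and cDN23P0002O20 the red diamond lies among the blue points, at 2.18 and -2.29, while in cDN23P0004P03 all red points lie below all blue ones.

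What set HTE2 replicate 3 apart was seen across the members that rose. Of the 92, HTE2 replicate 3 was the lowest HTE2 fish in 88, lay within the LTE2 range in 70, above it in 21 and below it in 1. LTE2 replicate 3 was the highest LTE2 fish in 63 of the 92. Relative to the LTE2 mean, the median over these 92 members was 1.69, 1.57, 0.44, 2.21 and 1.48 in HTE2 replicates 1 to 5, and 0.62 in LTE2 replicate 3. Within slide 3 HTE2 exceeded LTE2 in 31 of the 92, and on each of slides 1, 2, 4 and 5 in all 92. As the 92 were called on these arrays, the agreement of the other slides is no separate evidence.

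Among the 24 members that fell, HTE2 replicate 3 was the highest HTE2 fish in 16, and by its median it lay between the groups. HTE2 replicate 3 lay below the whole LTE2 range in 14 of 24 and within it in 10, and its median relative to the LTE2 mean was -0.50, between 0 and the -0.81 to -1.39 of the other HTE2 fish. On slide 3, HTE2 was below LTE2 in 23 of the 24. As the 24 too were called on these arrays, that count is no separate evidence. Whether HTE2 replicate 3 differs between the members that rose and those that fell was not tested.

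**Figure D5:**
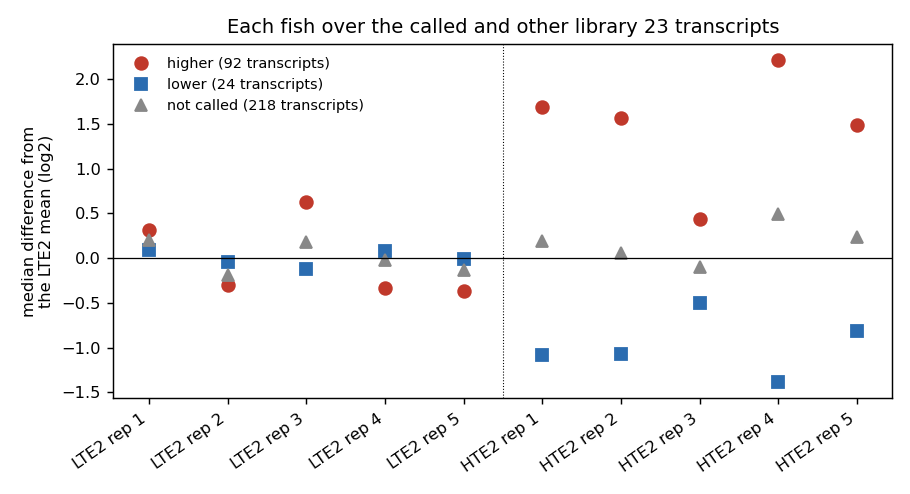
For each fish on the x axis, the y axis gives the median difference from the LTE2 mean in log2 units over the 92 members called higher (red circles), the 24 called lower (blue squares) and the 218 not called (grey triangles). Over the members called higher, HTE2 replicate 3 stands at 0.44 and LTE2 replicate 3 at 0.62, and the other HTE2 fish between 1.48 and 2.21.

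Few members separated the groups completely. Among 332 members measured on all arrays, all 5 HTE2 values lay above all 5 LTE2 values in 22 (6.63%, against 4.52% of all transcripts so measured), and below them in 15 (4.52%, against 8.96%). Of the 92 members that rose, 19 were without overlap, and of the 24 that fell, 12. The like share over all called transcripts was not taken, and the counts for rises and falls were not compared by a test.

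Much of the variation between the fish ran along 1 axis. The first principal component of the 332 members took 68.8% of their variance and the second 10.5%. Scores on the first were -6.20, -12.4, -0.73, -14.0 and -15.5 in LTE2 replicates 1 to 5 and 12.5, 11.6, -5.61, 20.0 and 10.3 in HTE2 replicates 1 to 5. HTE2 replicate 3 scored among the LTE2 fish and LTE2 replicate 3 nearest to 0. By member, HTE2 replicate 3 was the lowest HTE2 fish in 178 of 332 (53.6%) and HTE2 replicate 4 the highest in 167 (50.3%).

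Some members followed each other closely within the groups. By Pearson's r of the deviations from the group means over 10 arrays, the members most like cDN23P0004K04 were cDN23P0007J13 (r = 0.986), cDN23P0001A23 (0.982) and cDN23P0002C15 (0.976). In all 4, HTE2 replicate 3 was the lowest HTE2 fish, at -2.90 in cDN23P0007J13, -1.45 in cDN23P0001A23 and -5.97 in cDN23P0002C15, so these coefficients lean on 1 fish. The members most like cDN23P0004P03 were cDN23P0004K12 (r = 0.865), cDN23P0001O20 (0.810) and cDN23P0005H23 (0.799), each highest in LTE2 replicate 1. That array was the dimmest, and its part in the likeness was not tested. Over all 54946 pairs of members the median r was 0.21, and 210 pairs exceeded 0.95. The points share arrays, and clones of the same transcript could not be told from clones of different ones.

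Other kept probes of the same members mostly gave like differences. Of 308 members with at least 1 other kept probe (595 such probes), the differences of all probes had 1 sign in 283, and the largest distance of another probe from the chosen one had a median of 0.16 log2 units. It exceeded 1 log2 unit in 10 members. Of 115 called members with other probes, 113 had all of them in the same direction, and in 92 all of them passed on their own when all kept probes were tested together. These probes passed the same detection filter, were read on the same arrays and RNA, and do not replicate the fish.

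In the libraries with the neighbouring numbers, too, more transcripts were called higher than lower. Of 300 kept transcripts of library 22, 56 were called higher and 23 lower (26.3% called). Their median difference was -0.01 log2 units, with 147 above 0. Of 257 of library 24, 62 were called higher and 21 lower (32.3% called), with a median of 0.14. Library 23 had 92 and 24 (34.7% called) and a median of 0.44. Over all kept transcripts 25.5% were called, 10.9% higher and 14.6% lower. The difference between the libraries was not tested, since transcripts are not replicates and all were read on the same 10 arrays.

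In the authors' deposited table, which holds 331 of the 334 chosen probes, the same fit called 106 members (32%, against 24.5% of all matched transcripts), 88 higher and 18 lower, and 97 of the 106 were among the 116. The median difference of the members in the authors' deposited table was 0.19 log2 units, and that of all 9779 matched transcripts was -0.11. That table followed the spot intensity without background subtraction (r of 0.984 to 1.00 over 21701 probes of an array).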

How the data were processed

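Gonad RNA of 10 fish was measured on 1-colour arrays. The deposited scanner files hold intensities from Agilent Feature Extraction 10.7.3.1, per the file headers; of these the processed intensity is background-subtracted and detrended within the array. Agilent Feature Extraction and limma are the tools in the submitters' processing notes, which give no version. The authors' deposited value table holds log2 values with column medians of 8.01 to 8.05 and runs in the direction of the scanner intensities; its normalization is unknown.

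From the scanner files, 1057 outlier spots (of 43803 non-control spots per array, over all arrays) were left out of the values, and no non-control spot was saturated. Log2 processed intensity minus the array's 75th percentile was averaged per probe. The two-sided test over all 9929 kept transcripts was that of limma 3.58.1 (lmFit, eBayes; R 4.3.3), and group was its only term. Normexp correction, with an offset of 50, used the median spot intensity, as the files hold no mean. Each array is taken as 1 fish, and p-values measure the spread between these fish, whose number limits the precision. Under spike-in scaling that spread was pooled over transcripts. Each slide was scanned once, so slide and scan are the same batch. Figures were drawn with matplotlib 3.10.9.

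The members, the rule for named transcripts and the alternatives were chosen with earlier results of these data known. Named were the 6 brightest members, the 2 largest rises and falls among those called, the 4 most and 2 least variable, 2 on each side of the detection limit, and the 3 most alike to the largest rise and fall. The planned 10 rises and falls needed gene names, which were not matched.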

Additional observations from a re-analysis of the deposited data

Results flagged for a closer look

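In 56 groups of 4 or 5 values (the named members in each group, and 4 array measures), 12 had a highest or lowest fish far from the next. Chance alone picks about 1 group in 20, but only of groups not chosen from the same values. In 9 of the 12 the fish was HTE2 replicate 3. It was lowest in HTE2 at 2.18 for cDN23P0004K04 (next fish 5.00), at -2.90 for cDN23P0007J13 (next -0.27), at -1.45 for cDN23P0001A23 (next 1.17), at 3.62 for cDN23P0002N01 (next 3.87), at -5.71 for cDN23P0004K18 (next -1.83), at -7.87 for cDN23P0005O08 (next -4.93), at -7.07 for cDN23P0001I14 (next -3.67) and at -5.74 for cDN23P0005H23. It was highest in HTE2 at 1.05 for cDN23P0002C12 (next -0.26). Several of these members were chosen from the same values, for a large spread, a large difference or likeness to each other. The rate of 1 in 20 does not hold for them, and the 9 are not independent.

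LTE2 replicate 1 was the dimmest array, with a log2 75th percentile of 7.93, over 1 unit below the next LTE2 array, and was lowest in LTE2 for cDN23P0004J22, at 3.39 (next 3.86). HTE2 replicate 5 was lowest in HTE2 for cDN23P0006D21, at 0.26 (next 0.46), within a narrow range.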

How the results depend on the processing

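More members were called higher than lower under all alternatives that called members, but at an unadjusted limma p under 0.05 normexp gave 56 higher and 83 lower. For the alternatives, counts at an unadjusted p were taken over the members only. The median difference under normexp was -0.29 for the members and -0.51 for all kept transcripts. Leaving out 1 fish at a time gave 47 to 164 called members, 37 to 134 higher and 9 to 30 lower, and 1150 to 4145 transcripts over the array. Without LTE2 replicates 2, 4 and 5 in turn the called members fell to 74, 47 and 56, and without HTE2 replicates 1, 2, 4 and 5 in turn to 59, 63, 71 and 66. Without LTE2 replicates 1 and 3 in turn they were 97 and 110. Without both fish of replicate 3, chosen after seeing the data, 166 members were called (49.7%, against 37.4% of all transcripts), 138 higher and 28 lower.

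With the replicate block, 62 members (45 higher) and 1486 transcripts were called. Deviations from the group means were correlated between same-numbered fish over all kept transcripts measured on all arrays. The correlation was 0.39, 0.29, -0.27, 0.04 and 0.15 for replicates 1 to 5. For LTE2 replicates 1 and 2 the same-numbered HTE2 fish correlated best, and for replicates 3, 4 and 5 another HTE2 fish did. Same-numbered fish shared a slide, and these values cannot show whether the fish were paired in another way. The slide as a random block (correlation 0.02) gave 121 members (36.2%, against 26.2% of all transcripts). Normexp gave 63 members (18.9%, against 23.3% of all transcripts), 34 of them higher. Spike-in scaling, over 7 of 10 spike-in probes, gave 119 higher and 0 lower members (192 and 0 at an unadjusted limma p under 0.05). Over the array it called 1257 transcripts, 1240 higher and 17 lower. The median of all transcripts moved to 0.76 and that of the members to 1.48. Calls under spike-in scaling rest on a spread pooled over transcripts. With brightness as a covariate 0 members, 0 higher and 0 lower, and 56 transcripts were called. Fewer residual degrees of freedom enter the fits with a block or fewer fish. Neither their part in the counts nor other causes were tested.

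The median level of the members moved from -2.48 to -0.24 under median centring, by construction of that scale, to -1.76 over members detected on all 10 arrays and to -2.76 with the mean of a transcript's probes. The median SD stayed between 0.47 and 0.55. For cDN23P0004I18 the difference was 0.33 under spike-in scaling and 0.008 in the authors' deposited table. Dim members limit the depth of this description, as 81 of 334 were below the detection limit on at least 1 array.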

Other observations

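The clone names carry a number from 1 to 7 after the letter P. Members that rose were found under each number, from 6 of 37 (16.2%) under 1 to 21 of 56 (37.5%) under 6 and 21 of 55 (38.2%) under 7. Members that fell numbered 2 to 4 under each. Of all kept transcripts, 10.9% were called higher and 14.6% lower. The median log2 difference lay between 0.28 under number 1 and 0.62 under number 7. The labels do not say what the number stands for, and the difference between numbers was not tested.

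Of the 218 members that were not called, 143 had a log2 difference above 0 (65.6%, against 34.4% of all 7402 transcripts not called), with a median of 0.22 on the scale of the 75th percentile. Under normexp 53 of the same 218 were above 0 (24.3%, against 19.5% of the same 7402) and the median was -0.45. Relative to the LTE2 mean, HTE2 replicates 1 to 5 stood at a median of 0.19, 0.05, -0.10, 0.49 and 0.24 over these 218 members.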
